A study of Mus musculus with 9 samples.

Results

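The genes described are the subunits of voltage-gated sodium, potassium and calcium channels, taken as every gene whose symbol begins with Scn, Kcn, Cacna, Cacnb or Cacng followed by the family's own letters and numbers, with the long non-coding RNA *Kcnq1ot1* left out. This rule found 118 of the 17487 genes listed over all libraries. Of these, 11 belong to the sodium, 82 to the potassium and 25 to the calcium family. Matching used symbols and no measured value, but the rule was chosen with earlier results of these data known. The rule is wider than the name. Its 14 inward rectifiers (*Kcnj*) and 9 leak channels (*Kcnk*) have no voltage sensor, and 7 *Cacng* genes include regulators of AMPA receptors. A further sodium channel pore gene is listed under its older symbol *Scn2a1*, which the rule does not match.

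Single cells came from the neocortex of mouse embryos at E18.5, with 1 Chromium library of 3′ mRNA ends per animal. All animals came from a Tcf4ex4WT/lacZ line, in which a lacZ cassette interrupts *Tcf4*, the gene of a basic helix-loop-helix transcription factor. The study used male and female littermates, and which of these embryos shared a litter is not stated. WT embryos carried no cassette, and KO embryos carried it on both alleles. The insertion lies upstream of only some of the start sites of *Tcf4*, so KO embryos can still make the shorter forms. WT2, WT3 and WT4 were set against KO4 and KO5. The library labelled WT5 had *Tcf4* at 7.2 UMIs per 10000 UMIs of a cell, below KO4 (9.29) and KO5 (7.59) and far below WT2, WT3 and WT4 (12.2, 12.6 and 12.2). It was left out of the comparison of genotypes and is named as labelled throughout. The 3′ reads that were counted need not cross the insertion, so *Tcf4* counts are a limited check of the labels. KO4 and KO5 lay below WT2, WT3 and WT4 by 3.89 UMIs per 10000 on average, with a 2-sided exact permutation p of 0.2, the smallest that 3 against 2 libraries gave. Among the small libraries WT1 was at 4.65, KO1 at 16.7 and KO2 at 9.12, and over all 9 libraries as labelled KO was higher by 0.901 (exact permutation p = 0.73).

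Excitable cells fire and release transmitter through these proteins. Sodium channels carry the rising phase of the action potential, potassium channels end it and hold the resting potential, and calcium channels couple it to vesicle release and gene expression. Pore subunits form the conducting path, and beta, alpha2delta and KChIP subunits set how many channels reach the membrane and how they gate. In embryonic cortex radial glia and their progeny already express potassium and calcium channels, while firing matures as neurons gain sodium channels.

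Cells were sorted into classes by 9 lists of 8 marker genes, none of them a channel gene. A cell entered a class when at least 3 of its markers had a UMI and no other list came within 1 marker of that number. Kept cells numbered 1184, 1617, 6173, 3630, 4199 and 2303 in WT2, WT3, WT4, WT5, KO4 and KO5, with median depths from 2217 to 4359 UMIs per cell. The glutamatergic gate held 397, 737, 2315, 950, 1125 and 522 cells in that order, and the radial glia or astrocyte gate 119, 127, 440, 153, 293 and 164. A level in a library is the average, over its cells, of a gene's UMIs scaled to 10000 per cell, and values pooled over libraries are summed UMIs. No pair of libraries shared more than 1.7% of the smaller one's barcodes.

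The gates were not equally clean. In the radial glia gate the summed level of its 8 markers was 43.4, 73.1 and 59.7 UMIs per 10000 in WT5, KO4 and KO5 but 174 to 228 in WT2, WT3 and WT4. *Stmn2*, a gene of neurons, was at 24.0, 15.7 and 18.4 in the same gate of the former and at 2.96 to 7.79 in the latter. In the glutamatergic gate haemoglobin genes summed to 44.6, 30.2 and 71.8 in WT5, KO4 and KO5, against 4.77 to 8.29 in the other libraries. These 3 libraries were also shallow, with medians of 2217 to 2290 UMIs per kept cell against 2479 in WT2, 3636 in WT3 and 4359 in WT4. WT5 thus stood with the KO libraries, so the gate comparisons are also given for WT2, WT3 and WT4 alone.

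The sequence around the transcription start is shown for 4 members whose levels differed widely between gates. RefSeq promoters on GRCm38.p6 were found for 84 of the 118 members. Each window runs from 250 bases before to 50 bases after the start, 5′ to 3′ on the gene's strand. Capitals mark CANNTG, the E-box that TCF4 and related factors bind, which reads the same on both strands. *Cacna2d1* (window chr5:15934441-15934740, plus strand) and *Cacna2d2* (chr9:107399630-107399929, plus strand) encode paired alpha2delta subunits, *Kcnj10* (chr1:172340960-172341259, plus strand) the rectifier of glia, and *Kcnj8* (chr6:142571565-142571864, minus strand) the pore of the ATP-sensitive channel of vessels.
Cacna2d1: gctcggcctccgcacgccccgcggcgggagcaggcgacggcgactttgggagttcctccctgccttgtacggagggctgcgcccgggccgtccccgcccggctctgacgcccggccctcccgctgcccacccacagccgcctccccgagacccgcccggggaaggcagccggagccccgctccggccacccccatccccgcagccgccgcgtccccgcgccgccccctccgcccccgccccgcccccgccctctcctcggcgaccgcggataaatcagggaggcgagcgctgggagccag
Cacna2d2: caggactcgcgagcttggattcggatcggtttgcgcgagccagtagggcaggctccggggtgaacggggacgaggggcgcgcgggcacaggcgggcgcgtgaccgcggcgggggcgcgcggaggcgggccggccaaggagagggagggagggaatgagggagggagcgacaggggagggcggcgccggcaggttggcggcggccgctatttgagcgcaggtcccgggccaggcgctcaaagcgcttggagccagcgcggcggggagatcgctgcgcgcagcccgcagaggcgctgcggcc
Kcnj10: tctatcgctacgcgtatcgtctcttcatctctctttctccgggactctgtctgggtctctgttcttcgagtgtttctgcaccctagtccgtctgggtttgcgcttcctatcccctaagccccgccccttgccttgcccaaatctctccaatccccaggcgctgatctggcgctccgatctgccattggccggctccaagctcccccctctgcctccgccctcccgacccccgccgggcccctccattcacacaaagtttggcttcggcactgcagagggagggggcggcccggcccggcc
Kcnj8: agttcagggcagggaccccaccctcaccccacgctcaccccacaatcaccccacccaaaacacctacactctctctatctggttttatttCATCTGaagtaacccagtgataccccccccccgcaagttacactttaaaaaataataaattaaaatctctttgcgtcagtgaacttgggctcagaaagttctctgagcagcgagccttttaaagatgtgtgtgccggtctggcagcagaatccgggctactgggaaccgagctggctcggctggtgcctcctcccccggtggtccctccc
CANNTG was present in 72.3% of all 32851 windows of this length and in 86 of the 119 windows of members. Of the windows printed, that of *Kcnj8* held 1 match, CATCTG, which with its reverse CAGATG was in 17.2% of all windows. Those of *Cacna2d1*, *Cacna2d2* and *Kcnj10* held none. The windows of *Cacna2d1* and *Cacna2d2* were both rich in CpG, with 42 and 43 CpG dinucleotides against a median of 7 over all windows.

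*Kcnj8* marked the mural gate, the pericytes and smooth muscle of vessels. The gene lies at chr6:142564837-142571614 on GRCm38. Over WT2, WT3 and WT4, 24 mural cells held 134 of its UMIs, or 11.1 per 10000 (95% exact Poisson interval 9.29 to 13.1, which, like the other intervals and limits, covers counting error only). The endothelial gate held 5 and the radial glia gate 0, which allows up to 0.00925 per 10000. A *Kcnj8* UMI was found in 22 of 24 mural and 14 of 3449 glutamatergic cells, and in 16 and 3 of them with every cell thinned to 1800 UMIs. It was the fourth of the genes by fold that set the mural gate apart, although no channel gene was among the markers. The mural gates of WT5, KO4 and KO5 held 18 cells and 11 *Kcnj8* UMIs (1.97 per 10000).

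Other vessel, immune and glial gates held further members at few UMIs. Microglia held 12 UMIs of *Kcnk13*, a leak channel, in 55 cells (0.57 per 10000, 95% exact Poisson interval 0.29 to 0.996) and 5 of *Kcnk6*, where 3449 glutamatergic cells held 2 and 1. WT2 and WT3 did not list either gene, so all these UMIs came from WT4, which is 1 animal and held 50 of the 55 microglia. The endothelial gate held 9 UMIs of *Kcnq1* in 36 cells (0.51 per 10000, interval 0.23 to 0.97) and 7 of *Kcnj2*. The oligodendrocyte lineage held 38 UMIs of *Kcnip3*, a KChIP, in 57 cells, 44 of them from WT4 (1.42 per 10000, interval 1.01 to 1.95). It also held 24 UMIs of *Kcnd2* (0.90 per 10000), a pore subunit of the A-type current that KChIPs bind, and 10 of *Kcnd3*. Neuronal members also appeared in gates that should lack them: *Scn3a* had a UMI in 18.2% of 55 microglia and in 32.7% of glutamatergic cells, or in 12.7% and 14.8% with cells thinned to 1800 UMIs. The thinned glutamatergic share lay within the 95% Wilson interval of the microglial one (6.30 to 24.0%), and the source of these UMIs in microglia was not tested.

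**Figure D1:**
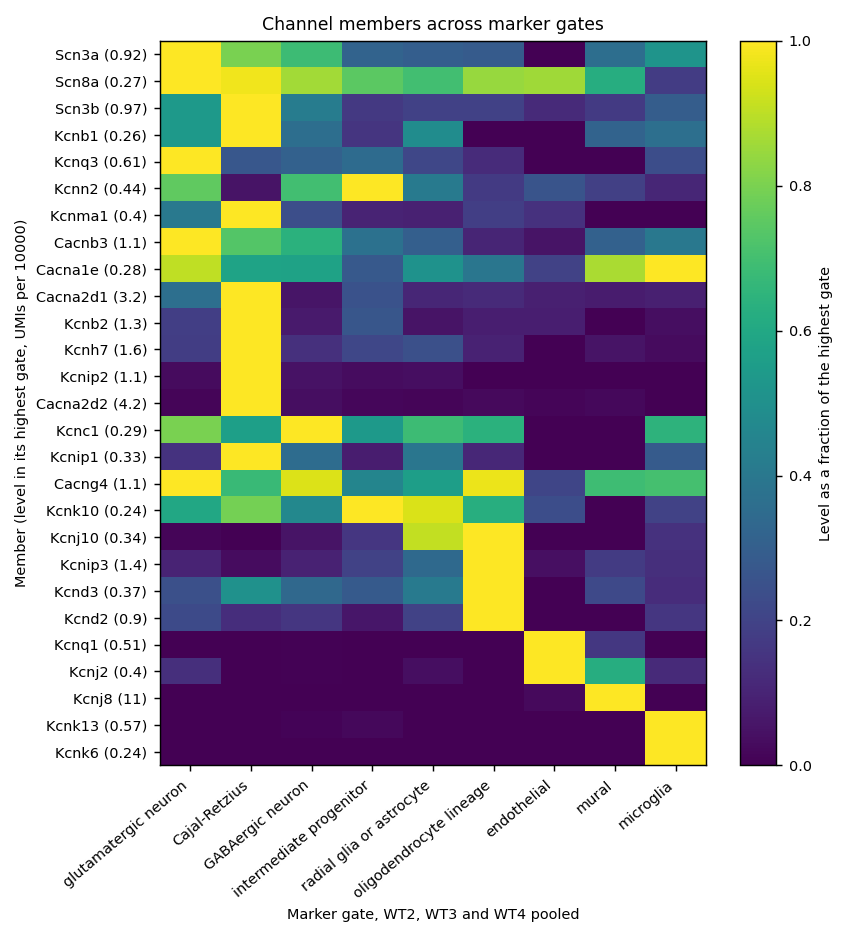
Level of 27 members in each marker gate (columns), from summed UMIs of WT2, WT3 and WT4. Colour is the level as a fraction of the member's highest gate, which is given in UMIs per 10000 after the symbol, and gates of 24 to 57 cells rest on few UMIs. *Kcnj8* fills the mural column and *Cacna2d2* and *Kcnip2* the Cajal-Retzius column.

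Cajal-Retzius cells, the reelin-secreting neurons of the cortical surface, held more of 3 alpha2delta and 3 KChIP transcripts and less *Kcnq3* and *Kcnn2* than glutamatergic neurons. The comparison with glutamatergic neurons was added after the data were seen. It used limma with the library as block, on log2(UMIs per 10000 + 0.25), in WT2, WT3 and WT4, whose gates held 30, 13 and 36 cells. With Benjamini-Hochberg adjustment over all genes, 18 of 47 members tested were called (38.3%, against 21.8% of all genes tested). In Cajal-Retzius cells 16 were higher and 2 lower, where 11.6% and 10.1% of all genes were. The remaining 71 members were too low to test. The median log2 difference of the 47 tested was 0.39, against 0.00 over all genes tested. Members low in glutamatergic neurons, such as *Cacna2d2* and *Kcnip2*, passed the filter on low values only through Cajal-Retzius cells. With no filter 5 of 108 members were called, all higher, and 37 of the 108 differences were positive. Their median was then -0.014, against -0.007 over all genes. The split and the median of 0.39 thus describe only members that passed the filter. Cajal-Retzius cells were also deeper, at median depths of 3973, 5519 and 6367 UMIs against 2530, 3802 and 4913. With all cells thinned to 1800 UMIs 9 members were called, 8 of them shared with the 18.

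All 3 alpha2delta subunits tested were called higher in Cajal-Retzius cells. They bring calcium channels to the membrane, and those of *Cacna2d1* and *Cacna2d2* (chr9:107399612-107529343, GRCm38) bind gabapentin. *Cacna2d2* was at 4.0, 2.49 and 4.54 UMIs per 10000 in Cajal-Retzius cells of WT2, WT3 and WT4 and at 0.059, 0.022 and 0.056 in glutamatergic neurons of the same libraries. The log2 difference was 3.69 (SE 0.23, limma adjusted p = 6.5e-55), where the size of p rests on a spread that limma shares across genes. A *Cacna2d2* UMI was found in 79.8% of Cajal-Retzius and 2.32% of glutamatergic cells. After thinning to 1800 UMIs, 50.6% of 79 Cajal-Retzius cells held one (95% Wilson interval 39.8 to 61.4), against 1.04% of glutamatergic cells and 0 of 55 microglia, which allows a share of up to 5.45% there.

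*Cacna2d1* was at 2.47, 2.8 and 3.69 in Cajal-Retzius cells and at 0.63, 0.80 and 1.26 in glutamatergic neurons, a log2 difference of 1.52 (SE 0.20, limma adjusted p = 1.1e-12). *Cacna2d1* was thus found in both neuron classes, while *Cacna2d2* in glutamatergic neurons was at the level of radial glia, with a UMI in 1.04% and 1.17% of thinned cells. *Cacna2d3* was also called higher, at a log2 difference of 1.21 and 18 UMIs in Cajal-Retzius cells.

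Among potassium members the KChIP *Kcnip2* differed most, from 0.038, 0.0090 and 0.043 in glutamatergic neurons to 1.05, 1.88 and 0.86 in Cajal-Retzius cells (log2 difference 2.38, SE 0.26, limma adjusted p = 1.7e-17). *Kcnh7*, a pore subunit of the ERG type, was at 1.01, 2.06 and 1.60 against 0.17, 0.25 and 0.31 (log2 difference 1.84, SE 0.24). The groups of libraries did not overlap for either gene. *Kcna6* (log2 difference 1.61) and *Kcnb2* (1.53), pore subunits of delayed rectifiers, were also called higher, as were *Kcnip1* and *Kcnip4*. The other KChIP tested, *Kcnip3*, was at 0, 0 and 0.069 in Cajal-Retzius cells against 0.13, 0.14 and 0.15 (log2 difference -0.53, SE 0.21, limma adjusted p = 0.062).

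The members called lower were *Kcnq3* and *Kcnn2*. *Kcnq3*, a pore subunit of the M-current that damps repeated firing, was at 0.21, 0 and 0.13 in Cajal-Retzius cells against 0.52, 0.67 and 0.63 (log2 difference -1.28, SE 0.27, limma adjusted p = 4.2e-05). *Kcnn2*, the small-conductance calcium-activated channel, held 1 UMI in the Cajal-Retzius cells of WT4 and 0 in those of WT2 and WT3, at a log2 difference of -1.16. *Kcnq3* was not called after thinning (log2 difference -1.02, limma adjusted p = 0.15), when 4 Cajal-Retzius cells held a UMI of it. Of the sodium members, the beta subunit *Scn3b* was called higher (log2 difference 0.90) and 0 of the 3 pore subunits tested were called.

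**Figure D2:**
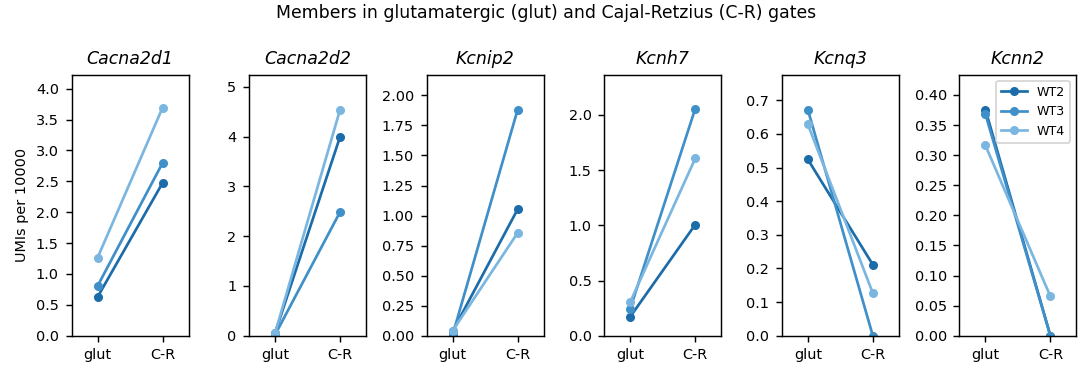
Levels (UMIs per 10000, axes from 0 and separate for each gene) of 6 members in the glutamatergic (glut) and Cajal-Retzius (C-R) gates, with a line for each of WT2, WT3 and WT4. *Cacna2d1*, *Cacna2d2*, *Kcnip2* and *Kcnh7* climb and *Kcnq3* and *Kcnn2* drop in each library.

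Glutamatergic neurons against radial glia or astrocytes asked which members accompany the passage from progenitor to neuron. In WT2, WT3, WT4, WT5, KO4 and KO5, with the library as block, 6 of 41 members tested were called by limma (14.6%, against 14.3% of all genes tested), and all 6 were higher in neurons, as were 5.22% of all genes. The count of members was thus near the background, and 77 members were too low to test. Their median log2 difference was 0.13, against -0.01 over all genes. The 6 were *Scn3a*, *Scn3b*, *Kcnma1*, *Kcnb2*, *Cacnb3* and *Cacna2d1*.

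The result differed between the sets of libraries named above. In WT2, WT3 and WT4 alone, a choice made after the data were seen, 26 of 36 members were called (72.2%, against 44.6% of all genes). In neurons 20 were higher, against 19.7% of all genes, and 6 lower, against 24.9%, and the 26 held all 6 named above. A member low in either gate could pass the filter on low values through the other alone, as *Kcnj10* did through radial glia. These counts, and those by family and of related genes below, thus describe only genes that passed the filter. With no filter, fitted over the 6 libraries only, limma called 0 of 112 members and 16 of 16435 genes. In WT5, KO4 and KO5 alone, 0 of 39 were called by limma, with 5 at an unadjusted p under 0.05 and 3.55% of all genes called. The SD of the 41 members' log2 differences was 0.51 to 0.58 in each of WT2, WT3 and WT4 and 0.23 to 0.29 in each of WT5, KO4 and KO5. Whether the mixing of markers in the radial glia gate of the latter accounts for this was not tested. EdgeR's quasi-likelihood test and DESeq2 on summed UMIs of all 6 libraries each called 17 members, 14 higher and 3 lower, where they called 30.3% and 27.5% of all genes.

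The sodium pore subunit *Scn3a* (chr2:65457118-65567627, GRCm38), the form typical of the embryo, was at 0.74, 0.95, 0.91, 0.75, 0.74 and 0.61 UMIs per 10000 in glutamatergic neurons of WT2, WT3, WT4, WT5, KO4 and KO5. In radial glia it was at 0.23, 0.13, 0.35, 0.58, 0.43 and 0.46. Each library was higher in neurons, by a log2 difference of 0.78 (SE 0.18, limma adjusted p = 0.031), or 1.21 (SE 0.14) in WT2, WT3 and WT4 alone. *Scn3b*, its beta subunit, differed by 0.45 (SE 0.10, adjusted p = 0.031). In WT2, WT3 and WT4 alone *Scn1a* (0.35) and *Scn8a* (0.33) were called as well, so that all 4 sodium members tested were called higher in neurons there, against 19.7% of all genes. In WT5, KO4 and KO5 alone 0 of the 4 were called.

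Potassium members went both ways. In WT2, WT3 and WT4 *Kcnq3* of the M-current rose (log2 difference 1.31, SE 0.12). *Kcnb2*, *Kcnma1* and *Kcnn2* rose by 0.45 to 0.57. The 6 members that were lower in neurons were all potassium genes: *Kcnj10*, the KChIPs *Kcnip3* and *Kcnip1*, *Kcnh7*, *Kcnd3* and the leak channel *Kcnk10*. Of 18 potassium members tested there, 6 were called higher and 6 lower, against 19.7% and 24.9% of all genes. Over the 6 libraries 2 of 22 were called, both higher, and in WT5, KO4 and KO5 alone 0 of 20.

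*Kcnj10* (chr1:172341210-172374085, GRCm38), which lets astrocytes take up potassium, separated the gates in WT2, WT3 and WT4. Radial glia of WT2, WT3 and WT4 held it at 0.30, 0.18 and 0.31 UMIs per 10000, and those of WT5, KO4 and KO5 at 0, 0.087 and 0.055. In glutamatergic neurons it was at 0 to 0.0051 in the first and at 0.018, 0.052 and 0 in the others. The log2 difference was -1.01 (SE 0.12, limma adjusted p = 2.3e-06) in WT2, WT3 and WT4, and over all 6 libraries it was -0.56 (SE 0.17, adjusted p = 0.057). *Kcnk2*, a leak channel, did not differ detectably between the gates: it was at 0.89, 1.60 and 1.37 in neurons and at 1.4, 1.6 and 1.37 in radial glia of WT2, WT3 and WT4 (log2 difference -0.17, SE 0.12, limma adjusted p = 0.25).

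Of 14 calcium members that passed the filter in WT2, WT3 and WT4, limma called 10 higher in neurons, against 19.7% of all genes, and 0 lower. Over the 6 libraries 2 of 15 were called, and in WT5, KO4 and KO5 alone 0 of 15. *Cacnb3*, a beta subunit, was at 1.04, 0.76 and 1.14 in neurons and 0.35, 0.27 and 0.38 in radial glia, and at 0.81, 0.91 and 0.89 against 0.68, 0.56 and 0.71 in WT5, KO4 and KO5. Its log2 difference was 0.70 (SE 0.14, limma adjusted p = 0.027) over the 6 libraries and 1.08 (SE 0.12) in the first 3. *Cacna2d1* differed by 0.71 (SE 0.16) and 1.08 (SE 0.13). Of the 6 pore subunits tested, 5 were higher in WT2, WT3 and WT4: *Cacna1b* of the N type (0.66), *Cacna1c* (0.57) and *Cacna1d* (0.36) of the L type, *Cacna1e* of the R type (0.35) and *Cacna1h* of the T type (0.38). *Cacna1a* of the P/Q type was at 0.18 (SE 0.13, adjusted p = 0.25). From summed UMIs of WT2, WT3 and WT4, *Cacna1d* and *Cacna1h* were at 0.094 and 0.19 in neurons and below 0.1 in radial glia. Such members could pass the filter through neurons alone, so their direction follows in part from it.

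Genes that anchor or control these channels and that the rule does not match moved in the same comparison. Of 21 tested in WT2, WT3 and WT4, 13 were called higher and 3 lower in neurons, against 19.7% and 24.9% of all genes. Over the 6 libraries 6 were higher and 2 lower of 23, and in WT5, KO4 and KO5 alone 1 of 23 was called. Those called in WT2, WT3 and WT4 included the ankyrin *Ank3* (log2 difference 1.79), which holds sodium channels at the axon's start, *Nfasc* (0.89) and the sodium pore gene *Scn2a1* (0.86). *Rest*, the repressor of neuronal genes, was lower (-0.80).

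**Figure D3:**
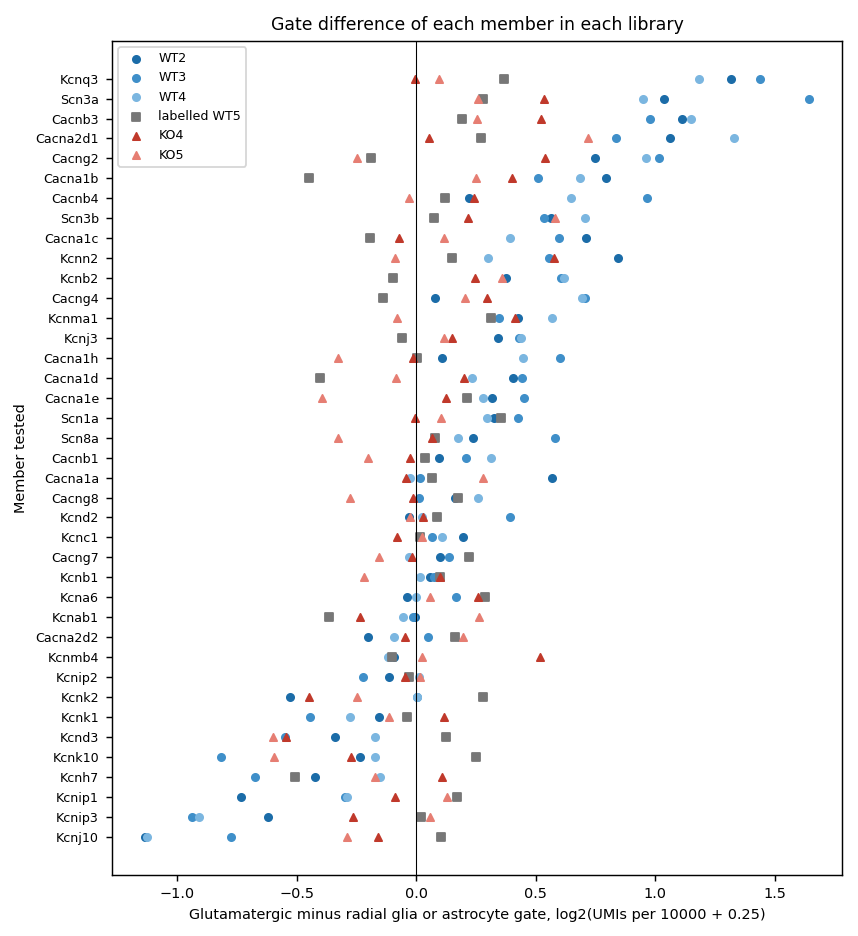
Difference of 39 of the 41 members tested between the glutamatergic and the radial glia or astrocyte gate, on log2(UMIs per 10000 + 0.25), with 1 point for each library. Members are ordered by their mean in WT2, WT3 and WT4 (circles), whose points spread from -1.14 to 1.64, while those of WT5 (squares), KO4 and KO5 (triangles) lie between -0.60 and 0.72.

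GABAergic against glutamatergic neurons asked whether inhibitory cells at this age carry other subunits. The GABAergic gate held 39, 60, 757, 10 and 14 cells in WT2, WT3, WT4, WT5 and KO4, and KO5, with 3, was left out. Cycling genes such as *Top2a* stood among the gate's leading genes, so it held progenitors as well. Limma called 2 of 42 members (4.76%, against 2.53% of all genes), both lower in GABAergic cells, where 1.56% of all genes were called lower. *Kcnq3* was at 0.13, 0.11, 0.21, 0 and 0 there against 0.52, 0.67, 0.63, 0.26 and 0.30, a log2 difference of -1.09 (SE 0.26, adjusted p = 0.013). *Cacna2d1* was at 0.17, 0, 0.20, 0.45 and 0.83 against 0.63, 0.80, 1.26, 0.74 and 0.80, and it fell by 1.07 on the log2 scale (SE 0.29, limma adjusted p = 0.031). The low values came with WT2, WT3 and WT4, and KO4's 14 cells overlapped the neurons. In WT2, WT3 and WT4 alone, again a choice made after the data were seen, 5 of 36 members were called (13.9%, against 13.4%), all lower, where 6.26% of all genes were: *Kcnq3*, *Cacna2d1*, *Kcnk2*, *Kcnb2* and *Cacnb3*.

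Within the GABAergic gate only WT4 held over 10 cells of both kinds, 228 cells with markers of interneurons and 175 with markers of the striatum, so no test was possible. *Cacng3*, a regulator of AMPA receptors, was at 0.35 UMIs per 10000 in the interneuron cells (30 UMIs) and at 0.019 in the striatal cells (2 UMIs). *Cacng2* was at 0.80 and 0.25, *Scn3b* at 0.68 and 0.38, *Cacnb4* at 0.72 and 0.33, and *Kcnk2* at 0.99 and 0.54. These values compare cells of 1 library.

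Deep against upper layer neurons gave no called member. Of 48 members tested over the 6 libraries limma called 0, with 5 at an unadjusted p under 0.05, and 0.281% of all genes. DESeq2 called 0 (0.475% of all genes) and edgeR 2 (2.7% of all genes), *Cacna1e* and *Kcnk1*, both higher in the deep layer gate. *Kcnk1* did not keep this direction in each library. Its log2 difference was 0.45, 0.41 and 0.73 in WT2, WT3 and WT4 but -0.16, -0.17 and -0.20 in WT5, KO4 and KO5. *Cacna1e* was at 0.31, 0.25, 0.42, 0.46, 0.34 and 0.31 in deep layer cells of WT2, WT3, WT4, WT5, KO4 and KO5 and at 0.20, 0.13, 0.24, 0.34, 0.24 and 0.22 in upper layer cells, higher in 6 of 6 libraries at a log2 difference of 0.33 (SE 0.12, limma adjusted p = 0.39). *Scn3b* differed by 0.34 (SE 0.11, adjusted p = 0.37). In WT2, WT3 and WT4 alone limma called 0 of 37 members (0.758% of all genes), with 3 at an unadjusted p under 0.05, and in WT5, KO4 and KO5 alone 0 of 39 (0.233% of all genes), with 1. In data simulated on these libraries 98.0% of genes changed by 1 on the log2 scale were recovered for this comparison. The changed genes were drawn above a floor of expected UMIs that *Cacna1e* did not reach, with the same simulated spread for every gene. The share therefore does not describe members at low levels.

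The last comparison asked whether channel genes differ between KO and WT glutamatergic neurons. Limma on WT2, WT3 and WT4 against KO4 and KO5 called 1 of 34 members (2.94%, against 4.05% of all genes tested), a share near that of all genes, and 84 were too low to test. Their median log2 difference was -0.06, against -0.10 over all genes. The KO libraries lay wholly outside the WT range for 7 of the 34, 2 above and 5 below, where this held for 44.2% of all genes tested. In all 7 WT5 lay outside the range of WT2, WT3 and WT4 on the same side as the KO libraries, as it did for 3218 of the 3681 such genes overall.

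The member called was *Kcnq3*, at chr15:65986387-66286642 on GRCm38. It was at 0.52, 0.67 and 0.63 UMIs per 10000 in WT2, WT3 and WT4, from 70, 200 and 728 UMIs, and at 0.30 and 0.27 in KO4 and KO5, from 99 and 34. The groups did not overlap, and the library labelled WT5 was at 0.26, with the KO libraries. It fell by 0.68 on the log2 scale (SE 0.13, limma adjusted p = 0.013), from 0.61 ± 0.08 (SD, n = 3) to 0.28 ± 0.02 (SD, n = 2). A *Kcnq3* UMI was found in 14.9%, 21.9% and 24.0% of cells of WT2, WT3 and WT4, 7.56% and 6.32% of KO4 and KO5 and 6.11% of WT5. With cells thinned to 1800 UMIs these shares were 9.82%, 11.7% and 10.3%, 4.71% and 4.41%, and 4.53%. EdgeR (adjusted p = 0.038) and DESeq2 (adjusted p = 0.040), which called 2.73% and 3.63% of all genes, called it as well.

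The call on *Kcnq3* rested on the choice of libraries. With the library labelled WT5 added to WT, limma called 0 members and 0 of 8441 genes, and *Kcnq3* was at -0.49 (adjusted p = 0.71). Without KO4 its adjusted p was 0.16 and without KO5 0.43, at log2 differences of -0.72 and -0.64. With the replicate number as a block, which pairs WT2, WT4 and WT5 with KO2, KO4 and KO5, limma called 0 members and 0 genes, with *Kcnq3* at -0.37 (adjusted p = 0.78). In the radial glia gate *Kcnq3* went the other way, from 0.060, 0.090 and 0.14 to 0.30 and 0.24 (log2 difference 0.59, adjusted p = 0.044), beside the rise of *Stmn2* in that gate given above. There 4 of 31 members were called (12.9%, against 12.2% of all genes), with *Kcnip3* and *Kcnj10* lower and *Cacna1e* and *Kcnq3* higher in KO. Marker mixing, haemoglobin and, less cleanly, depth moved with the KO libraries and with WT5. In the glutamatergic gate the median depth was 2530 UMIs in WT2, against 2409 in KO4, 2268.5 in KO5 and 2272.5 in WT5. The genotype cannot be told apart from these traits here.

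The next members by p did not pass the test. *Kcnk2* was at 0.89, 1.60 and 1.37 in WT and 0.83 and 0.68 in KO (log2 difference -0.59, limma adjusted p = 0.099), with WT5 at 0.83. *Kcnn2* was at 0.38, 0.37 and 0.32 against 0.29 and 0.086 (-0.50, adjusted p = 0.12), and *Kcnip1* at 0.067, 0.027 and 0.052 against 0.11 and 0.10 (0.25, adjusted p = 0.15). *Kcnk10* (-0.23), *Scn8a* (-0.21), *Scn3a* (-0.27), *Cacna1c* (-0.19), *Scn3b* (0.25) and *Kcnmb4* (0.21) had adjusted p from 0.24 to 0.38.

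Of 21 related genes tested, 3 were called, against 4.05% of all genes, and 0 with the library labelled WT5 added. *Itpr1*, the calcium release channel of the endoplasmic reticulum, fell by 0.83 on the log2 scale (limma adjusted p = 0.0063). *Atp1b1*, a sodium pump subunit (0.74), and *Slc12a5*, the chloride exporter of maturing neurons (0.46), rose, and WT5 was with the KO libraries for both. *Atp1b1* was at 0.53, 0.39 and 0.69 in WT2, WT3 and WT4, 0.98 in WT5 and 0.98 and 1.12 in KO4 and KO5.

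**Figure D4:**
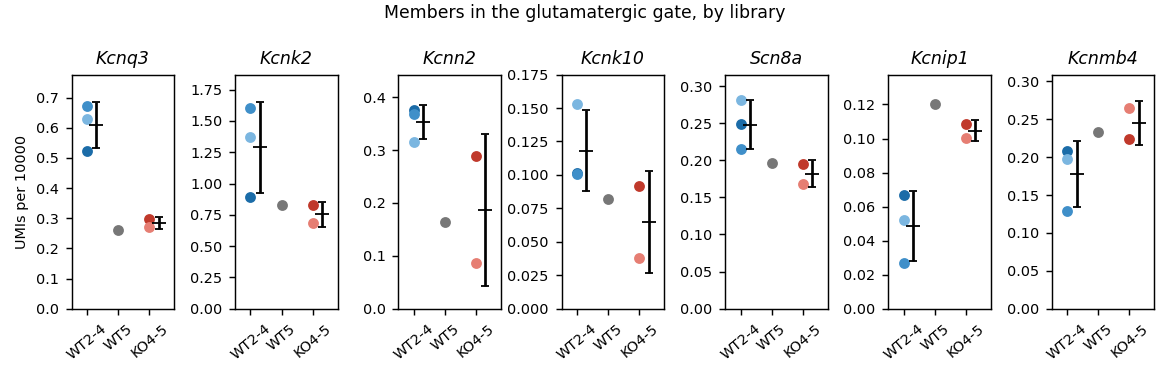
Level (UMIs per 10000, axes from 0 and separate for each gene) of 7 members in the glutamatergic gate, with 1 point for each library and the mean and SD of WT2, WT3 and WT4 (n = 3) and of KO4 and KO5 (n = 2) as bars. For each of the 7 the library labelled WT5 lies on the KO side of WT2, WT3 and WT4.

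In the GABAergic gate only KO4, with 14 cells, could stand for KO, so limma's test of 3 libraries against 1 assumed that this library varied like the others. It called 3 of 28 members (10.7%, against 12.5% of all genes), *Cacna2d1* and *Cacng4* higher and *Cacnb4* lower. *Cacnb4* had 0 UMIs in KO4 against 0.49, 0.38 and 0.46 per 10000 in WT2, WT3 and WT4, and a count of 0 among its 40030 summed UMIs allows up to 0.75 per 10000. EdgeR and DESeq2 called 0 members and 0.0848% and 0.0364% of all genes, with 1 and 0 members at an unadjusted p under 0.05, so no direction was read from this gate. In the test of whether genotype differences differ between glutamatergic and GABAergic cells, limma called 7 of 38 members (18.4%, against 15.3% of all genes) and edgeR 0 (0.817% of all genes), with 1 at an unadjusted p under 0.05. The like test between glutamatergic and radial glia cells, added after the data were seen, called 8 of 38 with limma (21.1%, against 15.7% of all genes), and 0 with the library labelled WT5 added to WT. Without WT5, edgeR called 6 of the 38 (15.8%) and 1276 of 9635 genes.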

How the data were processed

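The members and gene lists were chosen with earlier results of these data known. Per the labels, single cells of microdissected neocortex were sequenced in 1 library per embryo, and the submitters' processing notes name Cell Ranger 2.1.0, R 3.6.0, Seurat 2.3.4 and GRCm38. The authors deposited whole UMI counts for WT4, WT5, KO4 and KO5. For the 5 other libraries (KO1, KO2 and WT1 to WT3) the authors deposited the natural log of 1 + UMIs per 10000, from which whole UMIs were recovered (100% of values within 1e-06).

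Kept cells had 1000 to 5000 genes, 1800 to 10000 UMIs, under 6% mitochondrial UMIs and at most 1% haemoglobin UMIs. The last limit removed 40.4% of cells in KO5, 13.9% in KO4 and 0.42 to 3.71% in WT2 to WT5. No doublet caller was run, and results without the 5% of cells with most UMIs stand in for one. A cell in which another list came within 1 marker of the leading list entered no gate. Gated cells could still hold markers of other lists.

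UMIs per 10000 UMIs of a cell were averaged per library and gate (at least 10 cells) and tested in limma 3.58.1 (trend, robust) on log2(mean + 0.25), keeping genes that reached 0.1 in 2 or more library means, with Benjamini-Hochberg adjustment over all genes at 0.05, in R 4.3.3. Gate comparisons had the library as block. EdgeR 4.0.16 and DESeq2 1.42.0 on the summed counts were alternatives. The design had assumed several KO libraries for GABAergic cells, and only KO4 had enough. The text named, in each class comparison, the 4 called members of each family with the largest rise and fall and at least 50 UMIs, in genotype comparisons the 10 with the smallest p, and a fixed list of members and related genes. Members named for small gates (*Kcnk13*, *Kcnk6*, *Kcnq1*, *Kcnj2*, *Kcnip3*), within the GABAergic gate, by edgeR alone and in the closing section were chosen after their values were seen. P-values measure the spread between libraries, each of 1 animal. In simulated data, 200 genes were changed by 1 on the log2 scale. Of them 93.0% were recovered for glutamatergic against radial glia, 96.5% for GABAergic against glutamatergic and 76.5% for KO against WT glutamatergic cells. The changed genes were drawn above a floor of expected UMIs, with the same spread for every gene, so these shares do not describe members at low levels.

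Same-numbered WT and KO libraries deviated together, with correlations of 0.25, 0.19 and 0.45 over 1508 genes for numbers 2, 4 and 5. Pairs with different numbers ranged from -0.43 to 0.37, and 3 of them lay above 0.19. The numbers come from the labels. WT1, KO1 and KO2 were small and entered only alternatives. Coordinates of genes are from GENCODE vM21. Values of 3 members are not reported here, although the counts include them.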

Additional observations from a re-analysis of the deposited data

Results flagged for a closer look

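In the glutamatergic gate *Cacna1h*, a T-type calcium channel pore, was at 0.216 UMIs per 10000 in WT4 and at 0.132 to 0.145 in the other WT libraries, WT5 included, a gap that stood apart within the 4. Of 34 groups looked at this way chance would mark about 1 in 20.

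Whether the difference between glutamatergic and radial glia cells itself changed with genotype was tested after the data were seen, with limma on WT2, WT3, WT4, KO4 and KO5. It was called for 8 of 38 members (21.1%, against 15.7% of all genes), and by edgeR for 6 (1276 of 9635 genes). The change (KO minus WT, log2) was -1.27 for *Kcnq3*, -0.81 for *Scn3a*, -0.76 for *Cacng2*, -0.69 for *Cacnb3*, -0.69 for *Cacna2d1* and -0.54 for *Cacna1c*, which encodes an L-type pore. It was 0.72 for *Kcnip3* and 0.79 for *Kcnj10*. In KO4 and KO5 the excess of the first 6 in neurons and of *Kcnip3* and *Kcnj10* in radial glia was thus smaller. The 8 radial glia markers summed to 174 to 228 UMIs per 10000 in the radial glia gate of WT2, WT3 and WT4 and to 73.1 and 59.7 in KO4 and KO5. With the library labelled WT5 added to WT, 0 members and 0 genes were called by limma, with *Kcnq3* at -1.03 (adjusted p = 0.67). Genotype and the state of these libraries cannot be told apart.

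The test of glutamatergic against GABAergic genotype differences called 7 of 38 members with limma, where KO was 1 library of 14 cells, and 0 with edgeR.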

How the results depend on the processing

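The numbers of members called moved as follows, often with those of all genes, which are given in brackets as called of tested. For glutamatergic against radial glia (6 members, 1390 of 9740 genes), the count was 0 with no filter on low values (16 of 16435). It was 11 with TMM scaling (1961 of 9696) and 13 with a gate of 4 markers (2015 of 9829). Without the 5% of cells with most UMIs it was 4 (606 of 9763). With edgeR it was 17 (2951 of 9740) and with DESeq2 17 (2683 of 9740). It was 26 in WT2, WT3 and WT4 only (4131 of 9266) and 0 in WT5, KO4 and KO5 only (308 of 8684). Leaving out 1 library gave 0 to 16, with 0 without WT2, WT3 or WT4 (12 of 9549, 34 of 9546 and 18 of 9521). It was 16 without WT5 (2357 of 9635) and 2 without KO4 (402 of 9661). For GABAergic against glutamatergic (2 members, 235 of 9280 genes), it was 1 with pseudocount 1 (174 of 9280) and 0 with no filter (12 of 16165). It was 4 with TMM (539 of 9385) and 10 with edgeR (1513 of 9280). In WT2, WT3 and WT4 it was 5 (1184 of 8821), and in WT5 and KO4 8 (1023 of 7936). It was 0 to 3 leaving out 1 library, with 0 without WT3 (148 of 8995) or WT4 (185 of 9106). For deep against upper layer (0 members, 26 of 9261 genes), edgeR gave 2 (250 of 9261) and leaving out 1 library 0 to 0 (17 to 34 genes).

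For KO against WT glutamatergic cells (1), it was 0 with no filter, with WT5 added, with all libraries, with the replicate block, in the deep layer gate, in cells with no class and in all kept cells, 4 in the radial glia gate, and 0 to 2 leaving out 1 library, with *Kcnk2* called without WT2 (-0.79). For GABAergic cells (3), it was 0 with no filter, edgeR, DESeq2, WT5 added and all libraries, and 1 to 12 leaving out 1 library. The difference of these (7) fell to 4 with pseudocount 0.1, 0 with no filter, 2 with TMM, 3 thinned and 0 with edgeR, and was 1 to 16 leaving out 1 library. For Cajal-Retzius against glutamatergic (18 members, 1959 of 8991 genes), it was 5 with no filter (349 of 15661) and 9 thinned (858 of 8914). Without the 5% of cells with most UMIs it was 14 (1327 of 8512), from WT2 and WT4 alone. It was 15 to 17 leaving out 1 library (1281 to 1576 genes). For the genotype difference of the glutamatergic and radial glia contrast (8 members, 1514 of 9635 genes), it was 1 with no filter (367 of 16226). It was 6 with edgeR (1276 of 9635) and 9 without the 5% of cells with most UMIs (1610 of 9654). It was 5 with a gate of 4 markers (1215 of 9693), 0 with WT5 added (0 of 9740) and 3 to 9 leaving out 1 WT library (1006 to 1428 genes). For KO against WT glutamatergic cells, all genes called were 60 of 15974 with no filter and 54 of 8660 in the deep layer gate. They were 87 of 8534 in cells with no class, 93 of 8554 in all kept cells and 1112 of 9142 in the radial glia gate. They were 0 with WT5 added, with all libraries and with the replicate block.

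Directions turned for these values (log2). In the radial glia gate *Kcnq3* was at 0.59, *Scn3a* at 0.54, *Scn8a* at 0.26, *Cacna1c* at 0.35, *Kcnip1* at -0.21 and *Kcnmb4* at -0.17. *Kcnip1* was at -0.0805 with all libraries and -0.0586 with the replicate block. *Cacna1c* was at 0.11 in cells with no class and 0.0379 in all kept cells, and at 0.0845 in the thinned test of the difference between gates, and *Scn3b* was at -0.0158 in the deep layer gate. The KO minus WT difference of *Tcf4* was 0.901 UMIs per 10000 over all 9 libraries (exact permutation p = 0.73). Causes were not tested. The filter sets how many genes enter the adjustment, and leaving out libraries leaves fewer of them. The replicate block and the fit without KO4 could not be run for GABAergic cells, which had 1 KO library, nor any alternative for striatal against interneuron cells, from 1 library. Shallow libraries and gates under 60 cells limit members under 0.1 UMIs per 10000.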

Other observations

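Over all kept UMIs, 4 members had none in the 6 libraries: *Scn7a*, *Scn10a*, *Kcne1* and *Cacna2d4*. With these, 31 had under 50, and 22 had over 1000. Summed over the members, glutamatergic cells held 11.6, 11.4 and 15.2 UMIs per 10000 in WT2, WT3 and WT4, 12.0 in WT5 and 11.9 and 11.2 in KO4 and KO5. Radial glia held 8.01, 7.21 and 9.78, then 11.6, 10.4 and 10.6. The potassium family was near level between the gates in each library, at 4.85 to 6.68 in glutamatergic cells and 4.94 to 5.88 in radial glia, while sodium members summed to 1.46 to 2.03 against 0.43 to 1.51.

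The radial glia gate also held 27 UMIs of *Kcne2* and 14 of *Kcnj13*, both known from choroid plexus, over WT2, WT3 and WT4. *Ttr*, the main choroid plexus transcript, was at 36.7 UMIs per 10000 in that gate of WT4.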
